A study of Mus musculus with 4 samples.

Results

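The genes described here are the reproductive homeobox (Rhox) genes Rhox5, Rhox6, Rhox9 and Rhox13, selected by symbol from a table of 22138 genes. Rows were found for 3 of the 4 symbols, Rhox6, Rhox9 and Rhox13, and Rhox5 is not analysed here. The table held 26 other rows with a Rhox symbol, which were used for comparison within the family. RNA came from TT2 mouse embryonic stem cells, labelled as female and of strain C57BL/6xCBA. They were kept in serum and the self-renewal cytokine LIF with no feeder layer. One group received control siRNA (siCTRL, n = 2 libraries) and the other received siRNA against Hnrnpk (siHnrnpk, n = 2 libraries), at 100 nM and, 24 hours later, at 50 nM, with harvest about 72 hours after the second transfection. All 4 libraries share the line, the medium and the transfection schedule, and the comparison asks which transcripts changed when hnRNP K was depleted, a protein that binds C-rich nucleic acids and that the series' title ties to silencing by the H3 lysine 9 methyltransferase SETDB1. The labels describe biological replicates and do not say whether these were separate cultures, so p-values measure only the spread between these samples.

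Rhox genes form a cluster on the mouse X chromosome and encode homeodomain transcription factors of the paired-like class. They are known from the testis, ovary, epididymis and placenta, and members of the cluster are known as targets of DNA methylation in somatic cells of the embryo. Rhox6 and Rhox9, formerly Psx1 and Psx2, are known from placenta and germ cells, and Rhox13 is known from germ cells of the gonads.

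Rhox13 rose after Hnrnpk siRNA, and no such change was detected for Rhox6 or Rhox9. Rhox13 went from 3.30 ± 0.323 to 7.44 ± 0.643 RPKM (SD, n = 2 each), a 2.25-fold higher mean level. Rhox6 went from 18.9 ± 0.816 to 17.9 ± 2.02 RPKM and Rhox9 from 6.23 ± 0.214 to 6.22 ± 0.130 RPKM (SD, n = 2 each). RPKM is the number of mapped reads scaled to transcript length and library size. Levels can be compared between genes as far as the lengths used and the placing of reads are right.

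Rhox6 and Rhox9 are close copies, which bears on how well their reads can be told apart, and their sequences are shown first for that reason. The coding sequences of both genes have 684 bases in GENCODE M21, of which 620 (90.6%) are identical in an alignment over the full length. The longest run without a difference covers 161 bases, from coding base 167 to 327 in both genes, counted from the A of the start codon as 1. It reads, in lower case throughout because no base differs:
Rhox6 and Rhox9: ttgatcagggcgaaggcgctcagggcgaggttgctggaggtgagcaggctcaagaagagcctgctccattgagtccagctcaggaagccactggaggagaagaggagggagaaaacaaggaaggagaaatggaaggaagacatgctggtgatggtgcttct
The 90-base stretch with the most differences lies at coding bases 373 to 462 of both genes, where 22 bases differ, shown in capitals:
Rhox6: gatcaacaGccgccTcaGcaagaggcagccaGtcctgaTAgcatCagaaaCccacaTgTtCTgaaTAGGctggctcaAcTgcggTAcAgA
Rhox9: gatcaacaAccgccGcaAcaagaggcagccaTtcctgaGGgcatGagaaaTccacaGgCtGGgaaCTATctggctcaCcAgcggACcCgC
Over whole transcripts the longest BLAST alignment between them had 911 columns, gaps included, at 89.0% identity, and the identical run was not reported as an alignment of its own. No alignment of at least 100 bases reached 95% identity over its full length for Rhox6, Rhox9, Rhox13, Rhox1 or Rhox10, which leaves out shorter identical runs inside a longer alignment. Rhox13 had no alignment with another gene at 80% identity or more. The authors' handling of reads that fit several places is not known from these sources, so a part of the signal of Rhox6 and Rhox9 may come from the identical run of the other.

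The annotated starts of Rhox13, Rhox1 and Rhox10 differ in CpG content, and their upstream sequences are shown because CpG sites are where DNA methylation occurs and because Rhox13 rose while the other two did not pass the test. Each is the 250 bases before the RefSeq start (GRCm38.p6), 5′ to 3′, with every CpG in capitals. Rhox13 lies at chrX:38120590-38120839 on the plus strand, Rhox1 at chrX:37222259-37222508 on the minus strand and Rhox10 at chrX:38066225-38066474 on the plus strand.
Rhox13: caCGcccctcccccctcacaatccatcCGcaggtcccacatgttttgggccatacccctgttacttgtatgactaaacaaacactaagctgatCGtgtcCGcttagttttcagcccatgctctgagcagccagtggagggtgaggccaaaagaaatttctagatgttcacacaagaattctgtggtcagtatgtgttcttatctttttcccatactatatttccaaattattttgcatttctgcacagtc
Rhox1: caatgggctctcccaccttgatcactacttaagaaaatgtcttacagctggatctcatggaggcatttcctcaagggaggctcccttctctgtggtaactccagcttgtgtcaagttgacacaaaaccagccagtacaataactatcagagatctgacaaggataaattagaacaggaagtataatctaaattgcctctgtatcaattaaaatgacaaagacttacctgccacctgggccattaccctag
Rhox10: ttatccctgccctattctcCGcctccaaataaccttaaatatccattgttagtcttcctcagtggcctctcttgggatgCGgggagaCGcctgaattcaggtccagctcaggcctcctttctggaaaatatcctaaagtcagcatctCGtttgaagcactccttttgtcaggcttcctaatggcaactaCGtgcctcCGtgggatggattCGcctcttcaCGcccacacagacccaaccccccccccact
The window of Rhox13 held 4 CpG, that of Rhox1 held 0 and that of Rhox10 held 8, against a median of 6 over 32851 RefSeq promoter windows of the same length. Fewer CpG than in Rhox13 were found in 37.8% of those windows. GENCODE M21 places the start of Rhox13 379 bases further downstream, so this window is upstream of one of 2 annotated starts. Rhox6 and Rhox9 had no entry in the promoter table. On both strands, CCCC, a short form of the C-rich sequence that hnRNP K is known to bind, occurred at 5 overlapping positions in the window of Rhox13, at 8 in that of Rhox10 and at 0 in that of Rhox1, and 83.1% of all windows held it. The E-box CACGTG (6.02% of windows) and GCGGGA, a core of E2F sites (16.9% of windows), were in none of the 3.

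The targeted transcript was lower in the libraries labelled as depleted. The Hnrnpk transcript measured 236 and 226 RPKM in controls against 68.0 and 70.5 RPKM after its siRNA. The RPKM values of a library summed to between 359659 and 390467. By the most common low value of single-exon genes, the Hnrnpk siRNA libraries had 0.891 and 0.882 of the depth of control replicate 1. Markers of embryonic stem cells were present in every library. The 9 such markers, among them Pou5f1, Nanog and Sox2, summed to 3882 to 4035 RPKM in the control libraries. After Hnrnpk siRNA they summed to 4654 to 4976 RPKM. Of the 9, 2 were called higher (Nanog and Dppa5a) and 3 lower (Tdgf1, Utf1 and Sox2), against 32.2% and 35.0% of all genes tested.

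Rhox13 (ENSMUSG00000050197, chromosome X, 38121219 to 38129967, plus strand, GRCm38, protein coding) had 3.53 and 3.07 RPKM in the control libraries and 6.98 and 7.89 RPKM in the Hnrnpk siRNA libraries. Both depleted libraries lay above both controls. A lack of overlap between the groups was itself common, at 84.7% of all genes tested. The gap was also wider than the spread within either group, but how many genes share this was not counted. On the log2(RPKM + 0.5) scale, which understates the change of low genes, the change was 1.06 (SE 0.0944, limma adjusted p = 9.45e-06), with a 95% interval of 0.85 to 1.28. Over all genes, 32.2% of the 12486 tested were called higher and 35.0% lower at an adjusted p under 0.05, 67.2% in all, so a call alone does not set a gene apart. A called rise of at least 1 on the log2 scale was less common, at 4.0% of the genes tested (4.52% for a called fall of that size), and the change of Rhox13 stood at percentile 96.6 of all changes. With exon lengths from GENCODE M21, control replicates 1 and 2 correspond to about 384 and 328 units. Hnrnpk siRNA replicates 1 and 2 correspond to about 677 and 757 units. A unit is the most common low value of single-exon genes after scaling by length, and smaller values also occur. The counting error would be 3.63% to 5.52% if a unit were a read, but read counts could not be rebuilt. In these bulk samples, more cells expressing the gene and more RNA per cell cannot be told apart.

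Rhox6 (ENSMUSG00000006200, chromosome X, 37826910 to 37829857, plus strand, GRCm38, protein coding) was the highest of the Rhox genes, with 18.3 and 19.5 RPKM in the control libraries and 16.4 and 19.3 RPKM after Hnrnpk siRNA. The groups overlapped, since the second depleted library lay between the controls. It did not pass the test (limma adjusted p = 0.405), at -0.08 on the log2 scale with SE 0.0842 and a 95% interval of -0.27 to 0.11. Rhox6 stood at percentile 67.6 of the levels of all genes tested in the control libraries, so this gene of a cluster known for silencing by DNA methylation was not silent in these cells.

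Rhox9 (ENSMUSG00000068048, chromosome X, 37899097 to 37901770, minus strand, GRCm38, protein coding) had 6.08 and 6.38 RPKM in the control libraries and 6.13 and 6.31 RPKM after Hnrnpk siRNA. Both depleted libraries fell between the controls. Its log2 change was -0.0019 (SE 0.0762, limma adjusted p = 0.983), with a 95% interval of -0.17 to 0.17. In the control libraries Rhox9 stood at percentile 40.3 and Rhox13 at percentile 27.0 of the levels of all genes tested. After Hnrnpk siRNA Rhox13 moved to percentile 45.1 and Rhox9 to 41.2.

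**Figure D1:**
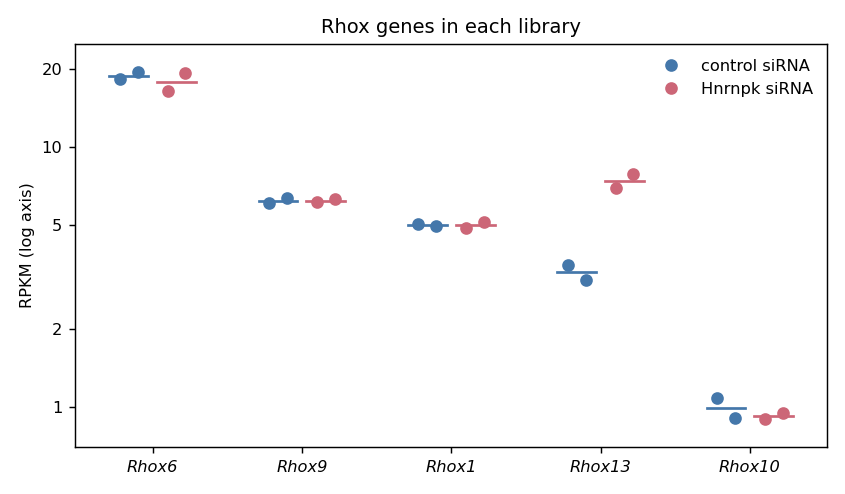
RPKM of the 5 Rhox genes that passed the filter on low values, in each of the 4 libraries (points) with the group mean (line), on a log axis. The Hnrnpk siRNA libraries lie above the controls for Rhox13 (6.98 and 7.89 against 3.53 and 3.07 RPKM) and overlap them for Rhox6, Rhox9, Rhox1 and Rhox10.

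Among the other 26 Rhox rows, 2 reached a mean of 0.5 RPKM and were tested, and neither was called by limma, with 0 at an unadjusted p under 0.05. Rhox1 had 5.05 and 4.95 RPKM in the control libraries and 4.88 and 5.17 RPKM after Hnrnpk siRNA (log2 change 0.0056, 95% interval -0.17 to 0.18). Rhox10, known from male germline stem cells, had 1.08 and 0.906 RPKM in the control libraries and 0.898 and 0.942 RPKM after Hnrnpk siRNA (log2 change -0.07, 95% interval -0.29 to 0.15). The groups overlapped for both. By level, the order was Rhox6, Rhox9, Rhox1, Rhox13, Rhox10 in each control library, and in each depleted library Rhox13 stood second, above Rhox9. Within a group, no 2 neighbours in that order overlapped between libraries. The place of Rhox9 depends on the length the authors divided by, since its GENCODE M21 exons cover 2488 bases in all and its compared transcript 882.

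The remaining 24 Rhox rows were low or at 0. Of these, 7 were listed at 0 in every library and 17 had a value above 0 in at least 1. Together the 24 summed to 0.684 and 0.559 RPKM in the control libraries and to 0.598 and 0.871 RPKM after Hnrnpk siRNA, so the sums of the groups overlapped. The highest single value was 0.336 RPKM, for Rhox2a. Rhox2a had 0.233 and 0.144 RPKM in the control libraries and 0.162 and 0.336 RPKM after Hnrnpk siRNA. Rhox7 had 0.119 and 0.102 RPKM in the control libraries and 0.184 and 0.149 RPKM after Hnrnpk siRNA. Its groups did not overlap, nor did those of Rhox2b (0.0151 and 0.0266 against 0.0452 and 0.0294 RPKM). Such a lack of overlap was found for 84.7% of all genes tested, a set that leaves out these low rows. The share among low rows was not counted. Rhox8, which is known from Sertoli cells of the testis, did not exceed 0.0136 RPKM in any library. Within each of Rhox2, Rhox3 and Rhox4, the rows are known as close copies, so the value of a single row is uncertain. Their sequences were not compared here.

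The ratio of 2 genes within a library does not depend on how libraries are scaled to each other. Rhox13 stood at 0.580 and 0.481 of the RPKM of Rhox9 in the control libraries and at 1.14 and 1.25 of it after Hnrnpk siRNA. Which of these 2 genes is higher depends on the length used for Rhox9, while the fold difference between the groups does not. Against Rhox6, the ratio was 0.193 and 0.158 in the control libraries and 0.425 and 0.409 after Hnrnpk siRNA. Rhox9 over Rhox6 was 0.332 and 0.328 in the control libraries and 0.373 and 0.327 after Hnrnpk siRNA. The groups were apart for the pairs with Rhox13 and overlapped for the pair without it. For the test, 0.5 RPKM was added to each gene before the log2 ratio was taken, which leaves a slight dependence on scaling. It also makes the differences smaller than the ratios above would give. On that scale the groups differed by 1.07 for Rhox13 over Rhox9, by 1.15 for Rhox13 over Rhox6 and by 0.08 for Rhox9 over Rhox6. In an exact two-sided permutation test over the 4 libraries, p was 0.333 for each pair with Rhox13 and 1 for the third (0.5, 0.5 and 1 after Benjamini-Hochberg adjustment over 3 pairs), and 0.333 is the smallest p that 2 libraries against 2 can give.

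**Figure D2:**
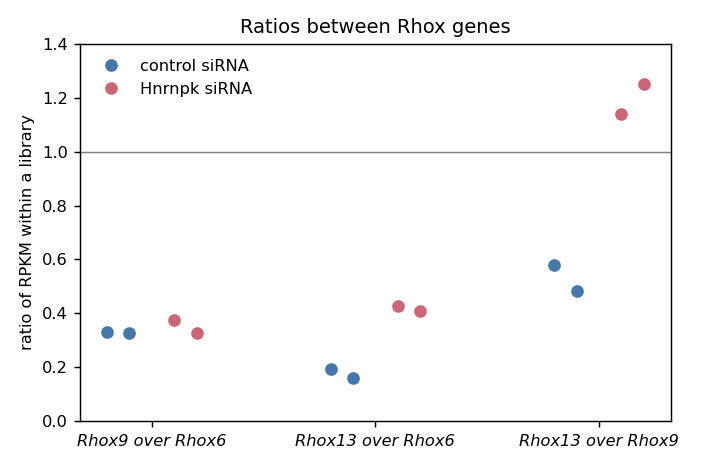
Ratio of RPKM between pairs of the 3 Rhox genes within each library (points, linear axis from 0; the grey line marks equal levels). Rhox13 lies below Rhox9 in both control libraries (0.580 and 0.481) and above it in both Hnrnpk siRNA libraries (1.14 and 1.25), and the ratio of Rhox9 to Rhox6 overlaps between the groups. The place of these ratios relative to the grey line depends on the length used for Rhox9.

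Of the 10 nearest genes of the table on each side of the Rhox cluster, 13 were tested, 8 were called higher and 2 lower. This is 76.9% called, against 67.2% of all genes tested, with a median log2 change of 0.24 against -0.015 over all genes tested. Lamp2, which encodes a membrane protein of lysosomes, rose by 0.99 on the log2 scale (SE 0.0872, limma adjusted p = 8.90e-06), with means of 6.28 ± 0.718 and 12.95 ± 0.434 RPKM (SD, n = 2 each). Upf3b, a factor of nonsense-mediated decay, had a log2 change of 0.51, Cul4b, a ubiquitin ligase scaffold, one of 0.50 and Ube2a, a ubiquitin-conjugating enzyme, one of 0.47. Ndufa1, a subunit of respiratory complex I, C1galt1c1, a chaperone of a glycosyltransferase, Zbtb33, a reader of methylated DNA, and Nkrf, a repressor of NF-kappaB targets, had log2 changes of 0.37, 0.31, 0.24 and 0.23. The 2 that fell were Sept6, a septin, at -0.85 and Rnf113a1 at -0.36. The flanking genes nearest to the cluster on each side were Gm9, at 2.76 kilobases, which was not called (log2 change -0.04), and Zbtb33, at 59.8 kilobases beyond Rhox13. Rhox13 is the last gene of the cluster on the side of Zbtb33. Over the whole X chromosome, 164 of 428 genes tested (38.3%) were called higher and 138 (32.2%) lower, with a median log2 change of 0.04. The largest called changes there were those of Taf7l, 8030474K03Rik and 4933402E13Rik (2.45, 1.96 and 1.90 on the log2 scale).

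**Figure D3:**
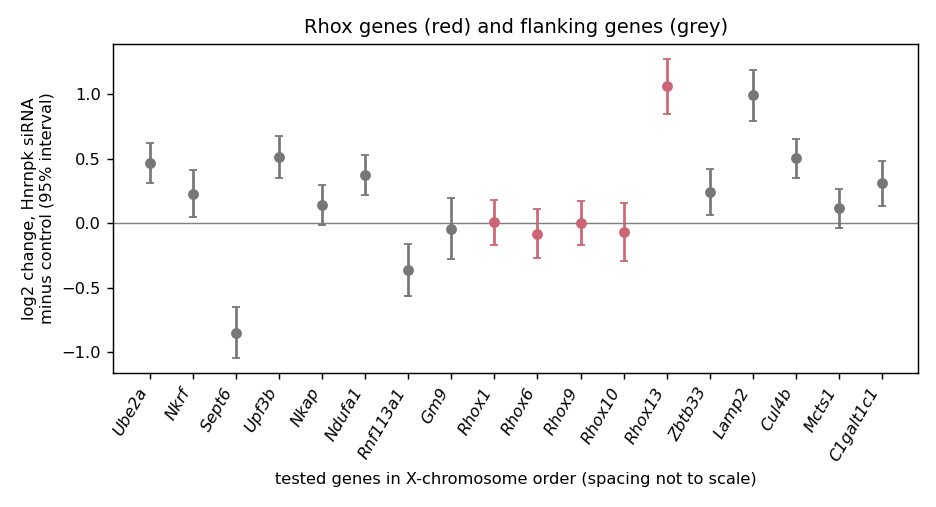
Log2 change (Hnrnpk siRNA minus control, log2(RPKM + 0.5) scale) with its 95% interval for the tested Rhox genes (red) and the tested flanking genes (grey), in their order on the X chromosome. Rhox13 is at 1.06, the other 4 Rhox genes have intervals that cross 0, and the flanking genes run from -0.85 (Sept6) to 0.99 (Lamp2).

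Rhox genes were set beside germline genes known as targets of promoter DNA methylation, which silences them in somatic cells. Of 29 such genes in the table, 23 were tested, 19 (82.6%, against 32.2% of all genes tested) were called higher and 3 lower, with a median log2 change of 0.997. The 3 called members that moved most were Slc25a31, an ADP/ATP carrier of the testis, from 1.30 ± 0.186 to 10.01 ± 0.423 RPKM, Taf7l, a germ cell form of a TFIID subunit, from 0.584 ± 0.0615 to 5.43 ± 0.257 RPKM, and Tex101, a germ cell surface protein, from 1.57 ± 0.184 to 7.86 ± 1.49 RPKM (SD, n = 2 each; log2 changes 2.55, 2.45 and 2.0). The change of Rhox13 lay close to the median of this list, and those of Rhox6, Rhox9, Rhox1 and Rhox10 lay within 0.1 of 0. For 2 of the 23, 1 group had a mean below 0.5 RPKM and the other carried the gene past the filter, and the list was drawn up with earlier results of these data known.

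Like Rhox13, 6 tested members of the germline list are X-linked, and 4 of them were called higher and 2 lower. Of all X-linked genes tested, 38.3% were called higher and 32.2% lower. The 6 members were named after their values were seen. Taf7l and Tex13 rose most (log2 changes 2.45 and 1.64), and Usp26 and Tex11 fell (-0.65 and -0.60). Tktl1 rose 2.33-fold in mean RPKM (log2 change 0.94). Mageb4 rose 3.86-fold, from 0.260 to 1.0 RPKM, which the added 0.5 RPKM brings down to a log2 change of 0.98, and it passed the filter only through the depleted libraries. The promoter windows of the germline list held more CpG than that of Rhox13. In 20 of the 23 with an entry, the 250 bases before the RefSeq start held 5 to 31 CpG, with a median of 14.5, and each held more than the 4 of Rhox13, although Usp26 (5) and Tuba3a (8) did not exceed the 8 of Rhox10. CACGTG was found in 11 of these 20 windows.

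Of 38 paired-like homeobox genes outside the cluster in the table, 10 were tested, with 4 called higher and 3 lower, a share of 70% called that is near the 67.2% of all genes tested. The list had a median log2 change of 0.097, which turned to -0.099 over members with a mean of at least 1 RPKM and to -0.13 without siCTRL replicate 2. Dmbx1, a homeobox gene of the developing brain, rose from 0.195 ± 0.0396 to 0.883 ± 0.0662 RPKM, and Crxos1 rose from 0.435 ± 0.0978 to 0.872 ± 0.020 RPKM (SD, n = 2 each), which is 0.99 and 0.56 on the log2 scale. Mixl1, a gene of the primitive streak, fell by 0.73 on the log2 scale, with 1.36 ± 0.150 RPKM in controls and 0.621 ± 0.0693 RPKM in depleted libraries (SD, n = 2 each). A mean below 0.5 RPKM in 1 group was found for 3 of the 10, Dmbx1 and Crxos1 among them.

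**Figure D4:**
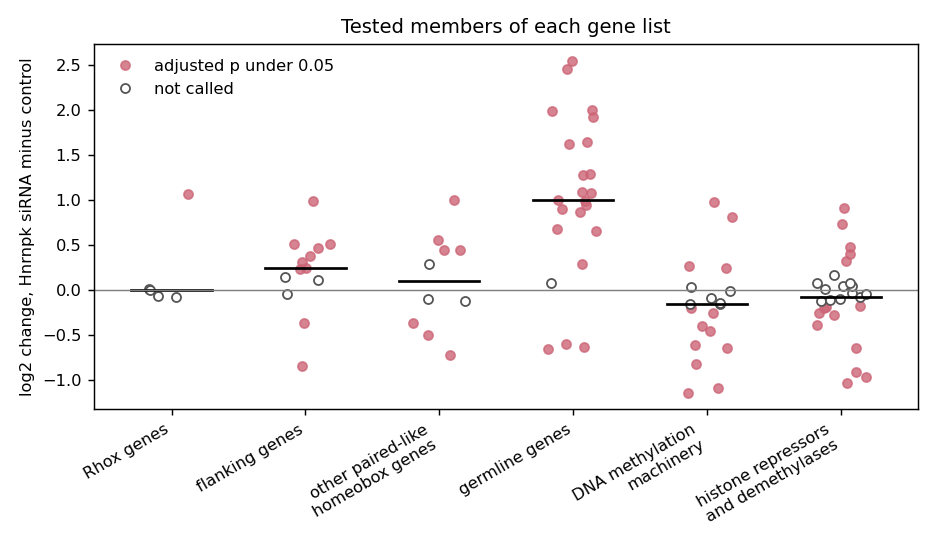
Log2 change (Hnrnpk siRNA minus control) of each tested member (points, filled where the limma adjusted p is under 0.05) of the Rhox genes and 5 gene lists, with the list median (black line). Of the 5 Rhox genes 1 is called, at 1.06. Of the 23 germline genes 19 are called higher and 3 lower, with a median of 0.997. Over all genes tested, 32.2% are called higher and 35.0% lower.

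Among transcripts of the DNA methylation machinery, 9 of 19 tested were called lower and 4 higher, 68.4% called in all against 67.2% of all genes tested. The median log2 change was -0.16 against -0.015 over all genes tested, and -0.25 without siHnrnpk replicate 1. The de novo methyltransferases fell, Dnmt3b from 87.6 ± 8.42 to 39.3 ± 2.14 RPKM and Dnmt3a from 16.9 ± 3.18 to 7.61 ± 0.0352 RPKM (SD, n = 2 each; log2 changes -1.14 and -1.09). The maintenance methyltransferase Dnmt1 and its partner Uhrf1 had log2 changes of -0.65 and -0.61. Dnmt3l, a cofactor without catalytic activity, rose by 0.97 on the log2 scale, with 103 ± 10.6 RPKM in controls and 203 ± 6.97 RPKM after depletion (SD, n = 2 each). Zbtb33, called higher, was already counted among the flanking genes. DNA methylation was not measured in these libraries.

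Of 27 tested histone repressors and demethylases, 10 were called lower and 5 higher, 55.6% in all against 67.2% of all genes tested. The median log2 change was -0.07, and it was -0.12 without siHnrnpk replicate 1 or under quantile normalization and -0.03 without siHnrnpk replicate 2. Smchd1, a repressor of gene clusters and of the inactive X chromosome, fell from 21.4 ± 0.576 to 10.2 ± 0.935 RPKM, and the linker histone gene Hist1h1b from 3.48 ± 0.524 to 1.53 ± 0.308 RPKM (SD, n = 2 each), which is -1.04 and -0.97 on the log2 scale. Suv39h1, a histone H3 lysine 9 methyltransferase, rose by 0.91 on the log2 scale, from a mean of 5.91 ± 0.405 RPKM to one of 11.6 ± 0.405 RPKM (SD, n = 2 each). Ehmt2, which encodes the H3 lysine 9 methyltransferase G9a, had a log2 change of -0.65, and Kdm6a, an H3 lysine 27 demethylase, one of 0.39. Setdb1 itself had means of 35.7 ± 0.633 and 32.8 ± 0.672 RPKM (SD, n = 2 each) and did not pass the test (limma adjusted p = 0.114).

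Markers of other cell types, among them some in which Rhox genes are known, moved between the groups. Of 14 trophectoderm and placenta markers, 7 were tested and all 7 were called higher, against 32.2% of all genes tested. Among the untested ones, Plac1 (0.216 and 0.179 against 0.0486 and 0.0851 RPKM) and Elf5 (0.105 and 0.109 against 0.0608 and 0.0705 RPKM) were lower in both depleted libraries, and Cdx2 (0.166 and 0.303 against 0.731 and 0.749 RPKM) was higher. The list summed to 36.4 to 41.8 RPKM in the control libraries and to 77.9 to 83.0 RPKM after Hnrnpk siRNA, while the placental genes Prl3d1 and Tpbpa were at 0 throughout. Of 9 primitive endoderm markers, 6 were tested and called higher, of which Pdgfra (0.191 and 0.148 against 0.835 and 0.961 RPKM) passed the filter only through the depleted libraries, with sums of 11.8 to 12.0 against 53.1 to 55.1 RPKM. Of 10 germ cell markers, 6 were called higher and 3 lower, against 32.2% and 35.0% of all genes tested. Their sums were 130 to 132 against 146 to 150 RPKM. Dazl, Ddx4, Mael and Sycp3, all called higher, were already counted in the germline list. Dppa3, called lower, was already counted in the DNA methylation machinery. Of 8 Sertoli markers, 1 of 2 tested was called higher and 1 lower, and of 8 fibroblast markers, 0 of 3 tested were called higher and 2 lower. Sertoli markers, Rhox8 among them, summed to 3.21 to 3.63 against 2.66 to 2.77 RPKM. Fibroblast markers summed to 8.79 to 10.4 against 5.05 to 5.31 RPKM. The part of these cell types in the change of Rhox13 was not tested.

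The genes whose pattern over the 4 libraries was most like each Rhox gene were found by the root-mean-square difference of log2(RPKM + 0.5) after centring each gene on its own mean. For Rhox13 these were Apoe (0.018), a lipid carrier, Npc2 (0.022), a lysosomal cholesterol-binding protein, and Rhod (0.025), a small GTPase, with log2 changes of 1.05, 1.08 and 1.03. For Rhox6 they were Polr2e (0.0099), a subunit of RNA polymerases, Dpf1 (0.010), a subunit of a chromatin remodelling complex, and Rccd1 (0.010). For Rhox9 they were Stim2 (0.0051), a calcium sensor, Fam43a (0.0078) and Upf3a (0.0079), a paralog of Upf3b. None of the 6 genes nearest to Rhox6 and Rhox9 was called. All of these genes were picked by their values in the same libraries, so their changes and calls follow from the choice.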

How the data were processed

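RNA-seq was performed on 4 libraries. The authors deposited RPKM values per gene in a single table of 4 columns. Per the submitters' processing notes, BWA, SAMtools and the build mm9 were used. Not given in the sources used here are the counting tool, the annotation release, strandedness and the handling of reads with several matches. Per the labels' protocols, poly(A) RNA was selected, while the labels' descriptions name depletion of ribosomal RNA.

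Positions, exon lengths and gene order came from GENCODE M21 (GRCm38), matched by Ensembl identifier for 20551 of 22138 rows (92.8%), and promoter windows from RefSeq (GRCm38.p6) by symbol. Neither is the authors' build, and lengths may differ from theirs. Where rows shared a symbol, those with an identifier in GENCODE were used. Low values of single-exon genes, scaled by length, were searched for their most common value, which was taken as 1 unit. Of the lowest values, 27.6% to 29.5% were whole to within 0.02. Read counts could therefore not be rebuilt, and a count model was not fitted. Whether a unit is a read or a read pair is unknown.

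The 12486 genes whose mean reached 0.5 RPKM were compared as log2(RPKM + 0.5). The test was limma 3.58.1 (R 4.3.3), which fits a trend of variance on level, two-sided, adjusted by Benjamini-Hochberg over all genes tested and called under 0.05. On simulated data for this comparison (12486 genes, 200 changed), 89% of changes of 0.5 and 100% of changes of 1 on the log2 scale were called, with 9 unchanged genes among 198 calls. Far fewer genes changed in the simulation than the 67.2% called in the data, so its rates may not apply to the real comparison. Transcripts were compared with BLAST 2.17.0, coding sequences were aligned with Biopython 1.88, and permutation tests used SciPy 1.17.1. Gene lists are described by counts and medians, without a set test.

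The Rhox genes and lists were chosen with earlier results of these data known. Named are the Rhox genes, Hnrnpk, the 3 called members of each list with the largest change, 8 regulators (Dnmt1, Dnmt3a, Dnmt3b, Dnmt3l, Uhrf1, Setdb1, Ehmt2 and Kdm6a), the called flanking genes and the 3 nearest patterns. Other names were chosen after their values were seen. The alternatives were other added constants, filters and scalings, no variance trend, a replicate block and leaving out each library.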

Additional observations from a re-analysis of the deposited data

How the results depend on the processing

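The change of Rhox13 kept its direction and its call under all 12 alternatives, with log2 changes of 0.97 to 1.15 and limma adjusted p of 3.42e-10 to 0.00217. The smallest of these limma adjusted p came from the replicate block, where the SE was 0.0961 against 0.0944 in the main fit. It therefore marks no clearer change. Leaving out 1 library at a time gave log2 changes of 0.98 to 1.15. With the replicate number as a block (replicate block), the log2 changes of Rhox6, Rhox9 and Rhox13 were -0.08, -0.0019 and 1.06, and no call among them changed. The deviations of same-numbered libraries correlated at 0.027 across 12486 genes, so the labels' numbers were not taken to pair the libraries. Rhox6 and Rhox9 were called under no alternative, but the sign of their small changes depended on the processing: Rhox6 ran from -0.20 to 0.030 without 1 library at a time, and Rhox9 from -0.034 to 0.031, with 0.018 without siHnrnpk replicate 1, at 0.0063 under median-ratio scaling and 0.059 under quantile normalization. Rhox1 was -0.0073 without siCTRL replicate 2 and -0.031 without siHnrnpk replicate 2 (leave-one-out range -0.031 to 0.043), and Rhox10 was 0.00049 under quantile normalization and 0.014 without 1 library (range -0.15 to 0.014). With no filter on low values, 1 of the other Rhox genes was called in place of 0 (Rhox7, named after its values were seen). The median of the paired-like homeobox genes was -0.099 with a minimum mean of 1 RPKM and -0.13 without siCTRL replicate 2 (leave-one-out range -0.13 to 0.24). With no filter, 17 of those genes were called and, with the minimum of 1 RPKM, 3, against 7; fewer genes pass the stricter filter. The cause of the other differences was not tested. The counts of all genes called higher (3155 to 4760) and lower (3552 to 4900) stayed within 1.5 times.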
